A study of Mus musculus with 6 samples.

Results

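Fatty acid oxidation and peroxisome genes are described here in mouse blood progenitors sorted after an inducible vector had delivered EVI1, a transcription factor with zinc fingers. The set held 43 genes of 18192 measured in the series, listed by symbol, and 41 of the 43 had a probe set annotated to that gene alone. Each gene was represented by the probe set chosen by its mean over the 6 arrays, taking the highest. The list itself was selected on knowledge of earlier results of these arrays, including differences between the same groups, so its counts and medians are a description and support nothing on their own. For Acsl1 no probe set was used, and the 1 probe set for Cpt1b is annotated to 3 genes.

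Long-chain fatty acids are first joined to coenzyme A by acyl-CoA synthetases. They then either pass into mitochondria through the carnitine shuttle or enter peroxisomes through ABC transporters. Mitochondria shorten them in a repeated cycle of dehydrogenation, hydration, a further dehydrogenation and thiolytic cleavage, which feeds electrons to the respiratory chain, whereas the peroxisomal cycle begins with oxidases that make hydrogen peroxide, which catalase removes. Peroxins build the organelle and import its enzymes, and PPAR nuclear receptors with the coactivator PGC1 alpha control many of these genes. In blood, fatty acid oxidation is best known for its part in the maintenance of stem cells.

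All samples were lineage-negative haematopoietic progenitors on the C57BL/6J background that carry the Rosa26rtTA transactivator, which switches on TET-controlled vectors when doxycycline is present. Cytokines in the cultures were interleukin-3 at 20 ng/ml, and at 50 ng/ml each interleukin-11, stem cell factor and the ligand of Flt3. The EGFP-positive group (n = 3 arrays) had received pRRL.TET.EVI1.IRES.EGFP, a vector in which EVI1 and the fluorescent protein EGFP share 1 transcript, and was sorted for bright EGFP. The EGFP-negative group (n = 3 arrays) is labelled untransduced, although the text on the design describes cells with little or no EGFP from a sort of transduced cultures. By that text doxycycline (1 µg/ml) was given to the cultures 20 hours before the sort, and so to both fractions. A vector with EGFP but without EVI1 is not among the samples used here, so effects of EVI1, of transduction and of EGFP cannot be told apart. The sources used here state neither the age of the animals nor how many animals or cultures there were. P-values therefore measure only the spread between these arrays, which may be technical.

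Each of the 6 arrays gave log2 values with a median of 5.11 to 5.14, and Pearson's r over probe sets was at least 0.989 within a group and 0.968 to 0.969 between groups. Signal from the 3' end exceeded that from the 5' end by more in EGFP-positive arrays, by 1.00 ± 0.03 against 0.80 ± 0.05 for Actb and by 1.06 ± 0.04 against 0.82 ± 0.02 for Gapdh (log2, SD, n = 3). Probe sets that match the 3' end of transcripts could respond to this, and its part in the differences below was not tested. The highest value of the bacterial control probe sets on any array, 3.61, served as a ceiling for background.

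Few of the genes differed much between the fractions. In EGFP-positive cells 5 of the 41 were higher (Cpt2, Acadl, Acadm, Acadvl and Cat) and 8 were lower (Acsl3, Acsl4, Acsl5, Acaa1b, Scp2, Eci2, Pex10 and Pparg), at an adjusted p under 0.05 (limma, Benjamini-Hochberg over all genes). Over all genes 33.2% were called, 16.0% higher and 17.2% lower, so the 31.7% called here was near the background and is not a result about these genes. Their differences were also small: the median absolute log2 difference was 0.23, against 0.27 over all genes. A difference of at least 1 on the log2 scale was measured for 1 of 41 (2.44%), Acaa1b, whereas 12.8% of all genes reached it. The 3 EGFP-positive values lay wholly above or below the 3 EGFP-negative values in 22 of 41 genes, or 53.7%, beside 48.2% of all genes. The called genes closest to the threshold were Acadvl (adjusted p = 0.041) and Eci2 (0.036), and those just outside it were Pex2 (0.053) and Pex13 (0.074). Because each array measured a sorted fraction in bulk, fewer cells of a type and less RNA per cell cannot be told apart.

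**Figure D1:**
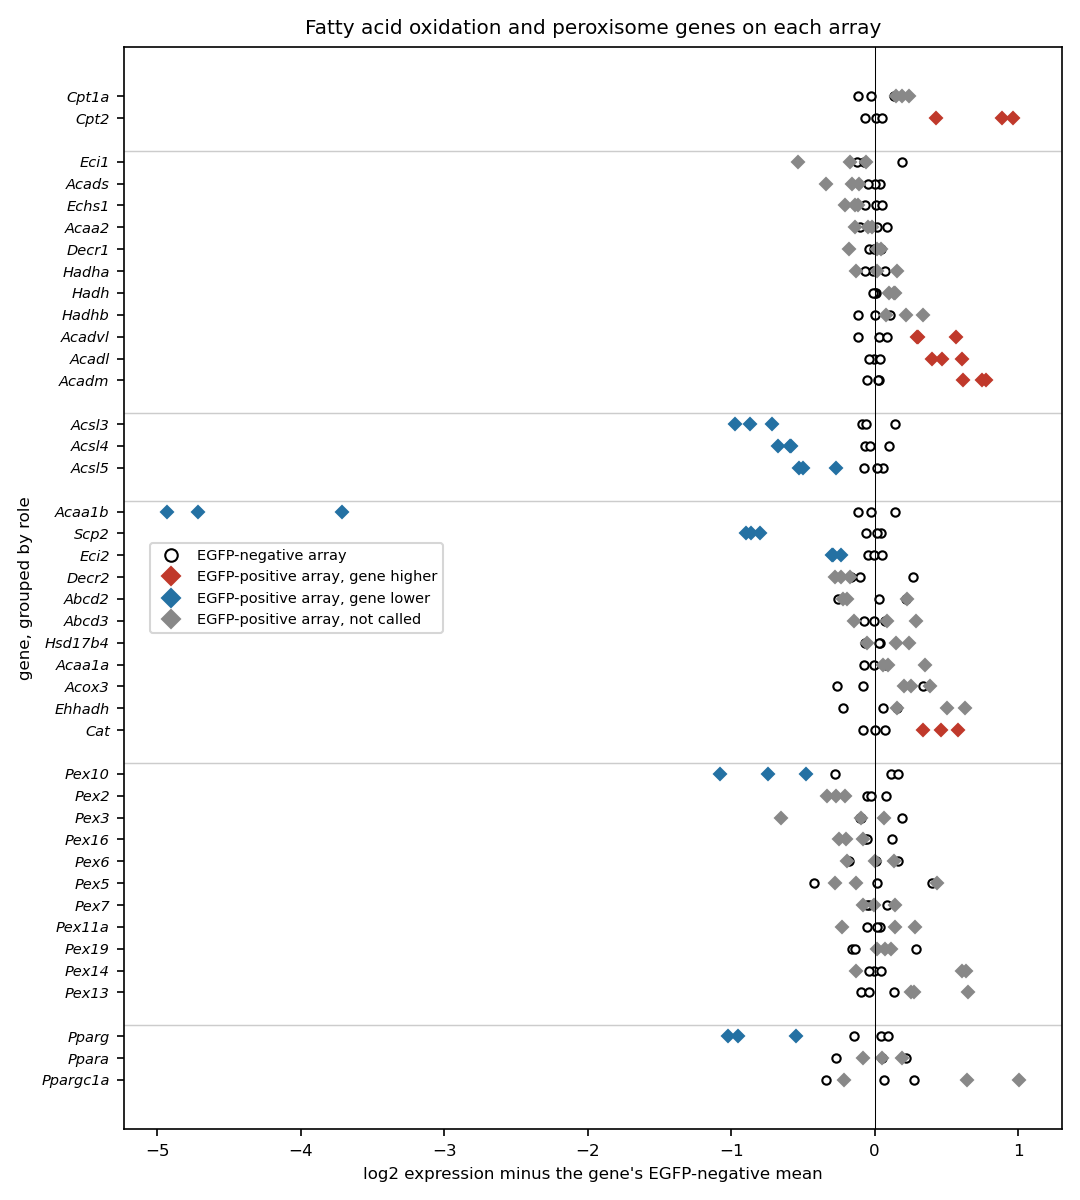
Log2 expression of each measured gene on each array, minus that gene's EGFP-negative mean, with genes grouped by role; open circles are the 3 EGFP-negative and diamonds the 3 EGFP-positive arrays, coloured by the call at an adjusted p under 0.05. Most diamonds lie within 1 of zero, and only Acaa1b lies far below, with a difference of -4.45.

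The carnitine shuttle carries long-chain acyl groups across the mitochondrial membranes, and its inner membrane enzyme rose. Cpt2, which hands the acyl group back to coenzyme A inside the mitochondrion, read 7.87, 7.95 and 7.99 (log2 expression) on the EGFP-negative arrays, then 8.36, 8.90 and 8.83 on the EGFP-positive ones. The groups did not overlap, and the difference was 0.76 (SE 0.15, adjusted p = 0.011, limma), or 1.69-fold. Cpt1a, the outer membrane enzyme that sets the rate of entry, went from 9.60, 9.69 and 9.86 to 9.95, 9.90 and 9.86 (values on the EGFP-negative arrays come first here and below). Its groups nearly touched, and the difference of 0.19 (SE 0.09) did not pass (adjusted p = 0.18). Its other probe sets gave 0.22 and 0.01. Cpt1b is the muscle form of the outer enzyme. Its probe set, annotated also to Chkb and Gm44502, went from 4.73 ± 0.07 to 4.29 ± 0.15 (SD, n = 3), a value that cannot be assigned to any of the 3 genes.

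Among the enzymes of the mitochondrial matrix cycle, the acyl-CoA dehydrogenases of long and medium chains rose. These enzymes catalyse the first step, each for a range of chain lengths. Acadm, the medium-chain enzyme, went from 8.56, 8.65 and 8.64 to 9.39, 9.23 and 9.37, a rise of 0.72 (SE 0.08, adjusted p = 0.0013, limma). Acadl, the long-chain enzyme, went from 10.44, 10.40 and 10.48 to 11.05, 10.91 and 10.84, a rise of 0.49 (SE 0.09, adjusted p = 0.0067). Acadvl, the very-long-chain enzyme of the inner membrane, went from 9.20, 9.25 and 9.05 to 9.47, 9.73 and 9.46, a rise of 0.39 (SE 0.11, adjusted p = 0.041). In all 3 genes every EGFP-positive array lay above every EGFP-negative array. Groups did not overlap in 48.2% of all genes, so this is no further support for the calls. The Acadvl call did not hold up: it ended whichever of the 6 arrays was left out, the adjusted p lying between 0.053 (EGFP-positive replicate 3 removed) and 0.12 (EGFP-negative replicate 3 removed). The Acadl call rests on its brighter probe set, since the other read 1.97 ± 0.14 and 2.13 ± 0.64 (SD, n = 3), under the ceiling in both groups.

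The short-chain dehydrogenase and the later steps of the cycle did not pass. Acads, which acts on short chains, read 8.24, 8.20 and 8.16 and then 7.86, 8.10 and 8.04, a difference of -0.20 (adjusted p = 0.16, limma). Its groups did not overlap either, with the EGFP-positive values lower. The trifunctional protein, which carries out the last 3 steps on long chains, had differences of 0.01 for its alpha subunit gene Hadha and 0.21 for its beta subunit gene Hadhb (adjusted p = 0.94 and 0.18). Hadh, the dehydrogenase of shorter hydroxyacyl chains, read 13.17 ± 0.01 and 13.30 ± 0.02 (SD, n = 3), groups that did not overlap, with a difference of 0.13 (adjusted p = 0.24). The hydratase gene Echs1 had -0.15 and the thiolase gene Acaa2 had -0.07. For Eci1 and Decr1, whose enzymes move or reduce double bonds of unsaturated chains, the values were -0.25 and -0.04. Of the 11 matrix genes, then, 3 were higher, 0 lower and 8 did not pass, with a median difference of 0.01. The 27.3% called was under the 33.2% of all genes, so the count is no result about these enzymes.

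The genes of long-chain acyl-CoA synthetases, which activate fatty acids at the endoplasmic reticulum, the mitochondrial outer membrane and other membranes, fell in all 3 cases measured. Acsl3, linked to lipid droplets, went from 8.35, 8.12 and 8.15 to 7.34, 7.49 and 7.23, a fall of 1.81-fold (difference -0.85, SE 0.11, adjusted p = 0.0018, limma). Acsl4, which prefers arachidonic acid and other polyunsaturated chains, went from 10.86, 10.90 and 11.03 to 10.34, 10.34 and 10.26 (-0.62, SE 0.09, adjusted p = 0.0025). Acsl5 went from 11.38, 11.34 and 11.25 to 11.06, 10.83 and 10.80 (-0.43, SE 0.10, adjusted p = 0.020). None of the 3 had overlapping groups, where 48.2% of all genes had none. Over all genes 17.2% were called lower. With only 3 genes, from a list chosen with earlier results known, this count is a description and no result about the family. The other Acsl4 probe sets gave larger differences, -1.10 and -1.78, and the Acsl3 probe set next in brightness gave -1.03. The dimmest Acsl3 probe set gave -0.32 and did not pass (adjusted p = 0.60 over probe sets). For Acsl5 the call was lost without EGFP-negative replicate 1 (adjusted p = 0.075), EGFP-negative replicate 2 (0.070), EGFP-positive replicate 2 (0.056) or EGFP-positive replicate 3 (0.053).

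**Figure D2:**
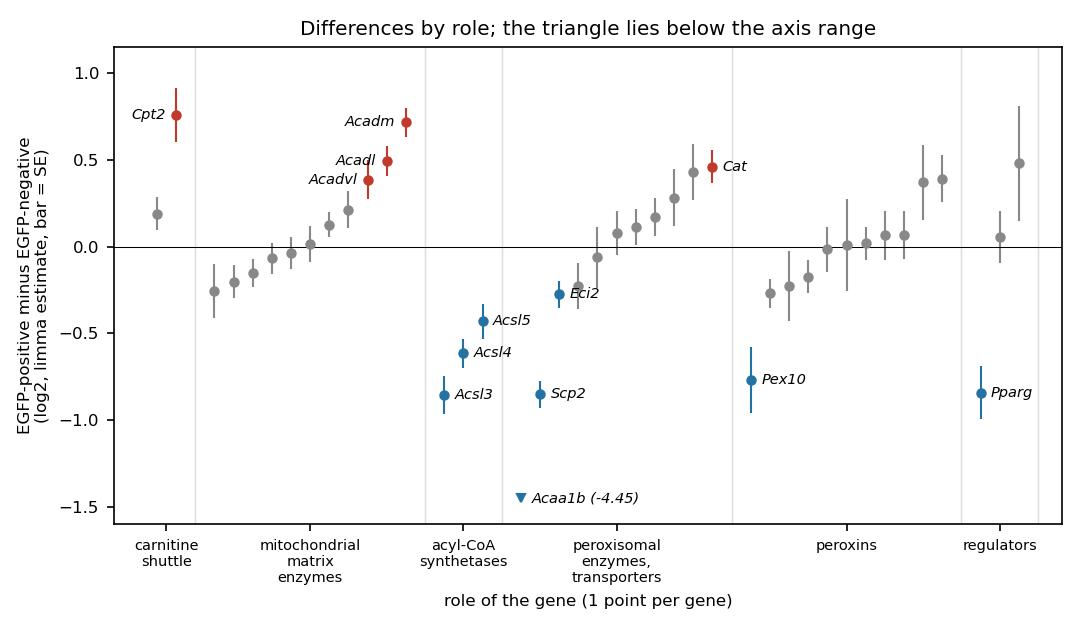
EGFP-positive minus EGFP-negative difference of each measured gene on the log2 scale (limma estimate, bars are SE), ordered within its role; red is higher, blue lower and grey not called. The 3 acyl-CoA synthetase genes all lie below zero, the higher calls lie in the shuttle, the matrix enzymes and catalase, and Acaa1b (-4.45) is drawn as a triangle at the lower edge.

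Peroxisomal enzymes held the largest change. Acaa1b encodes a peroxisomal 3-ketoacyl-CoA thiolase, the last enzyme of the cycle, and is 1 of a pair of close mouse copies with Acaa1a. It went from 9.38, 9.47 and 9.65 to 5.79, 4.57 and 4.79. Every EGFP-positive value lay above the background ceiling, so the fall of 21.9-fold was measured on both sides (difference -4.45, SE 0.31, adjusted p = 0.00018, limma). Ranked over all 18192 genes, this was the fall in place 8. EGFP-positive replicate 1 was the highest of its group, and leaving out any 1 array gave differences of -4.21 to -4.82.

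Acaa1a, the other copy, was not called. Its brighter probe set went from 8.98, 8.91 and 9.06 to 9.08, 9.04 and 9.34, overlapping groups with a difference of 0.17 (SE 0.11, adjusted p = 0.29, limma). Its other probe set gave 0.13. There are also 2 probe sets annotated to both genes, and their differences were -0.22 (adjusted p = 0.16 over probe sets) and -0.04 (adjusted p = 0.83). The fall of Acaa1b therefore rests on 1 probe set, and probe sets shared with Acaa1a did not pass. How much each copy adds to the shared signal was not tested.

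**Figure D3:**
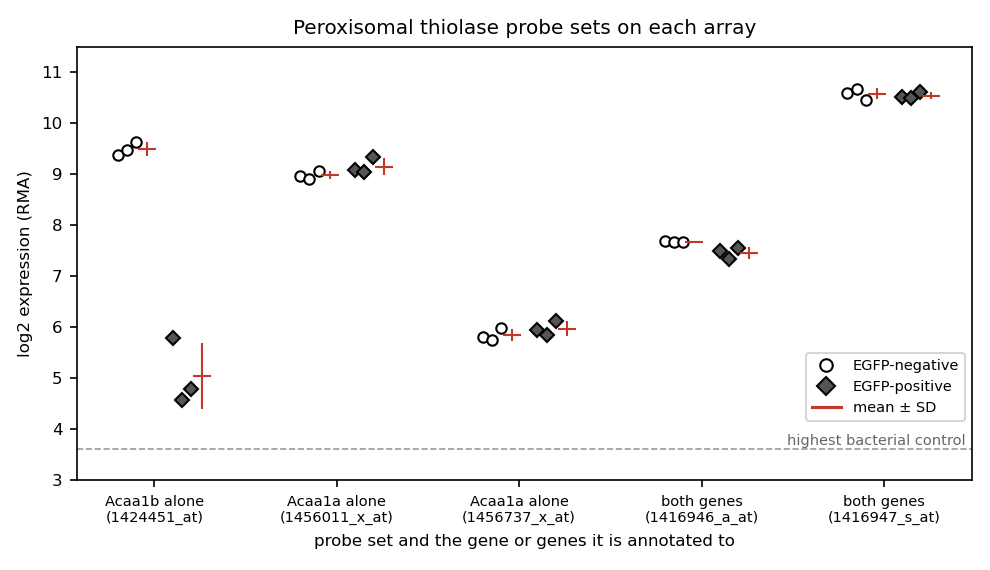
Log2 expression of the peroxisomal thiolase probe sets on each array, with the mean ± SD of 3 arrays beside them; open circles are EGFP-negative and diamonds EGFP-positive, and the dashed line is the highest bacterial control. The Acaa1b probe set drops from 9.50 to 5.05 while the probe sets of Acaa1a and those shared by both genes have group means that differ by 0.22 or less; levels of different probe sets are not comparable.

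The upstream sequences of the pair are shown because 1 copy held the largest difference of the set and the other was not called. They are the 250 bases before each gene's start in RefSeq (GRCm38.p6), on the plus strand at chr9:119341044-119341293 for Acaa1a and on the minus strand at chr9:119157094-119157343 for Acaa1b. Both are written 5′ to 3′, with matches to the CCAAT box (CCAAT on either strand) and the GC box (GGGCGG on either strand) in capitals.
Acaa1a: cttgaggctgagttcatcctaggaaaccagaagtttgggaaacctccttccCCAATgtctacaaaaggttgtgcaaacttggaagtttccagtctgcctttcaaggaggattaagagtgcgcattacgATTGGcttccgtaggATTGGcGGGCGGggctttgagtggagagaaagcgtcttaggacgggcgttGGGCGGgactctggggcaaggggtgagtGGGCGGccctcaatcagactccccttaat
Acaa1b: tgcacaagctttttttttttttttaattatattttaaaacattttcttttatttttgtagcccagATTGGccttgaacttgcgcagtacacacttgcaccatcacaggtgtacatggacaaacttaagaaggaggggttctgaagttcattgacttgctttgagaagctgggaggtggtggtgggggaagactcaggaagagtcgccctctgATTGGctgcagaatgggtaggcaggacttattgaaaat

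The windows differ in base composition and in these letters. Acaa1a had 10 CpG dinucleotides, 53.6% G and C, 3 CCAAT matches and 3 GC box matches, while Acaa1b had 2 CpG, 41.6% G and C, 2 CCAAT matches and 0 GC box matches. Of the 36 listed genes with a window, the median CpG count was 12.5, and Acaa1b and Ppargc1a were the 2 with no more than 5, beside 49.5% of all genes in the RefSeq table. The GC box was found in 27 of 36 genes (75.0%) against 35.4% of all 27025 genes, and the CCAAT box in 14 of 36 (38.9%) against 37.5%. The comparison genes were all those with a window, measured here or not, and their median CpG count was 6. Genes of like CpG count were not compared, so this count cannot tell whether the gap in GC boxes is particular to these pathways. These are matches of letters, not measured binding sites.

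Differences of the genes around the pair ran both ways, and none was as large as that of Acaa1b. In RefSeq order 4 protein-coding genes lie between the copies, and their differences were -0.10 for Slc22a14, 0.03 for Slc22a13, -0.14 for Oxsr1 and 0.38 for Myd88, of which the last, an adaptor of Toll-like receptors, was called higher (adjusted p = 0.014, limma). Both Slc22a genes were under the background ceiling in both groups. On the far side of Acaa1b, Plcd1 had 0.37 (adjusted p = 0.088) and Vill rose by 0.68 (adjusted p = 0.0042), while Dlec1, next to Acaa1b, had no value here. On the far side of Acaa1a, Exog fell by 1.00 (adjusted p = 0.012), Acvr2b rose by 0.50 (adjusted p = 0.011), and Xylb had -0.67 (adjusted p = 0.052).

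Scp2, which yields a sterol carrier protein and a peroxisomal thiolase for branched chains, also fell. It went from 11.34, 11.24 and 11.31 to 10.50, 10.40 and 10.44, with no overlap (difference -0.85, SE 0.08, adjusted p = 0.00049, limma), or 1.80-fold lower. Its other bright probe sets gave -0.74 and -0.81, and the last lay under the ceiling. Cat, the gene of catalase, rose from 11.56, 11.48 and 11.63 to 12.02, 12.13 and 11.89 (0.46, SE 0.10, adjusted p = 0.013), and its other probe set gave 0.80. The Cat call was lost without EGFP-negative replicate 2 (adjusted p = 0.055). Eci2, an isomerase known from peroxisomes and mitochondria, went from 9.30, 9.34 and 9.40 to 9.06, 9.05 and 9.11 (-0.27, SE 0.08, adjusted p = 0.036). That call did not hold up either, ending whichever of the 6 arrays was left out, the adjusted p lying between 0.053 (EGFP-positive replicate 3 removed) and 0.11 (EGFP-negative replicate 2 removed).

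The other peroxisomal enzymes and the transporters did not pass with all 6 arrays. Ehhadh, a bifunctional enzyme of the inducible pathway, went from 4.21, 3.83 and 4.11 to 4.55, 4.68 and 4.21, close to background (0.43, adjusted p = 0.089, limma), and passed without EGFP-positive replicate 3 (0.57, adjusted p = 0.035). Acox3, an oxidase of branched chains, had a difference of 0.28, which passed without EGFP-negative replicate 2 (0.45, adjusted p = 0.047). Hsd17b4, the bifunctional enzyme for branched and very long chains, had 0.11. Decr2, a peroxisomal reductase for unsaturated chains, had -0.23. The half-transporter genes Abcd2 and Abcd3, whose products bring acyl-CoA into the organelle, had -0.06 and 0.08. The Abcd2 probe sets did not point 1 way, with 0.31 and -0.34 from its other bright ones, and neither passed.

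Peroxins showed no common direction, and 1 of 11 was called (9.09%, beside 33.2% of all genes). Pex10, a RING-type ubiquitin ligase of the peroxisomal import machinery, went from 6.91, 6.52 and 6.96 to 6.32, 6.06 and 5.72 (-0.77, SE 0.19, adjusted p = 0.024, limma), with no overlap. The Pex10 call was lost without EGFP-negative replicate 1 (adjusted p = 0.082), EGFP-negative replicate 3 (0.085), EGFP-positive replicate 2 (0.058) or EGFP-positive replicate 3 (0.051). Pex2, another ligase of the same complex, had -0.27 with groups that did not overlap (adjusted p = 0.053), and its second probe set gave -0.41. On the side of higher values, Pex13 and Pex14, docking proteins for import receptors, had 0.39 and 0.37 (adjusted p = 0.074 and 0.25). Pex14 was uneven, going from 5.68, 5.73 and 5.65 to 5.56, 6.30 and 6.32, and passed without EGFP-positive replicate 1 (0.62, adjusted p = 0.0054). The import receptors Pex5 and Pex7 had 0.01 and 0.02, the receptor-recycling ATPase gene Pex6 had -0.02, and the division factor gene Pex11a had 0.07. The membrane assembly factors Pex3, Pex16 and Pex19 had -0.23, -0.17 and 0.07. The median over the 11 peroxins was 0.01.

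Of the nuclear regulators, Pparg alone was called. PPAR gamma, a fatty acid-sensing receptor central to fat cells and some macrophages, went from 8.53, 8.58 and 8.35 to 7.53, 7.94 and 7.46, a fall of 1.79-fold (difference -0.84, SE 0.15, adjusted p = 0.0068, limma) with no overlap. Ppara, the receptor that drives fatty acid oxidation in liver, read 2.77 ± 0.25 and 2.83 ± 0.14 (SD, n = 3), under the ceiling in both groups. Ppargc1a, which encodes PGC1 alpha, read 2.96, 2.55 and 3.17 and then 3.54, 2.68 and 3.90. Only 1 of those 6 values was above the ceiling, so no fold is given for it.

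Set side by side, mitochondrial genes (the shuttle and matrix enzymes) were called higher in 4 of 13 and lower in 0, and peroxisomal genes (enzymes, transporters and peroxins) were called higher in 1 of 22 and lower in 4. These are 30.8% and 22.7% called, at or under the 33.2% of all genes (16.0% higher and 17.2% lower), so the counts are no result about either compartment. The median differences were 0.13 and 0.01, beside 0.02 over all genes. As a median over genes of each array's deviation from the EGFP-negative mean, the mitochondrial genes read 0.14, 0.15 and 0.10 in the 3 EGFP-positive arrays and the peroxisomal genes -0.13, 0.07 and -0.09. On each of these arrays the mitochondrial median was the value of a single gene, Hadh, which was not called (adjusted p = 0.24, limma). The matrix enzymes alone read 0.08, 0.05 and 0.02 there. The median of all mitochondrial genes exceeded the peroxisomal one on each EGFP-positive array, by 0.27, 0.07 and 0.18. On the EGFP-negative arrays it did so by 0.04, 0.01 and 0.01. Those are small by construction, since deviations were taken from the EGFP-negative mean, and are no control for the EGFP-positive values. The difference between the compartments was not tested. With Eci2 counted as mitochondrial, the mitochondrial median was 0.071, and without Acaa1b the peroxisomal median was 0.02.

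Across all probe sets of these genes, 85 in number, 5 were called higher and 12 lower, or 20.0% against 24.1% of all probe sets (limma, adjusted over probe sets). Besides the probe sets that stand for the genes, 7 others above the ceiling belonged to called genes. All 7 had the sign of the gene, 6 of them past the threshold, and they came from Acsl3, Acsl4, Cat and Scp2 alone. The probe sets that stand for Acadvl and Eci2 did not pass in this fit (adjusted p = 0.062 and 0.070). None of the other probe sets of uncalled genes passed.

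The AGGTCA hexamer bound by PPAR, RXR and related receptors was searched in the same windows of 250 bases, on both strands. It was present in 7 of 36 listed genes (19.4%) against 15.8% of all genes, and 3 of these were called higher and 2 lower. The DR1 arrangement that PPAR and RXR bind as a dimer, a direct repeat of that hexamer with a single base between, was found in 0 of 36 and in 0.0407% of all genes. Only exact repeats in these windows were counted, and just 11 of 27025 genes had one. A search so strict cannot tell whether the listed genes have or lack such elements. Stretches are given for Acadvl and Cat, called higher, and Scp2, called lower, with the hexamer in capitals. The other called genes with a match, Acadm and Pparg, are not shown, and the Acadvl call did not hold up with any 1 array left out. The stretches are from RefSeq (GRCm38.p6, minus strand): Acadvl at chr11:70015493-70015532, Cat at chr2:103485335-103485374 and Scp2 at chr4:108118634-108118673.
Acadvl: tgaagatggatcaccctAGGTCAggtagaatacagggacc
Cat: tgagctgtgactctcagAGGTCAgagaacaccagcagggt
Scp2: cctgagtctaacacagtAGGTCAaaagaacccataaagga

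A further 159 genes came from lists of membership in these and related lipid pathways, drawn up with earlier results of these data known. Of these 37 were higher and 31 lower, so that 68 (42.8%) were called beside 33.2% of all genes. A difference of at least 1 on the log2 scale was measured for 26 of them (16.4%), beside 12.8% of all genes, and the excess over all genes was not tested. Among 39 further peroxisomal enzymes and membrane proteins 9 were higher and 9 lower (46.2% called). Ephx2, a soluble epoxide hydrolase, went from 5.98 ± 0.26 to 9.28 ± 0.25 (SD, n = 3), a rise of 9.81-fold (adjusted p = 7.9e-05, limma), and Phyh, which starts the alpha-oxidation of phytanic acid, rose by 1.20 (adjusted p = 0.00050). Tysnd1, the protease that processes peroxisomal enzymes, fell by 1.22 (adjusted p = 0.00046). Nudt7, a coenzyme A hydrolase, fell by 0.73 (adjusted p = 0.0028), but its most variable probe set gave 0.39 without passing. Acox2, an oxidase for branched chains and bile acid precursors, was under the ceiling in EGFP-negative arrays and rose at least 3.10-fold (adjusted p = 0.0010). It is named here after its values were seen.

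Of 26 further mitochondrial genes 4 were higher and 7 lower (42.3% called, beside 33.2% of all genes). Acot2, a matrix acyl-CoA thioesterase, rose by 1.00 (adjusted p = 0.00024, limma) and Cpt1c, a brain relative of Cpt1a, by 1.33 (adjusted p = 0.0011). Acss1, which activates acetate, fell by 1.18 (adjusted p = 0.00020), although with the mean of its probe sets it did not pass (-0.40, adjusted p = 0.065). Hsd17b10, a hydroxyacyl-CoA dehydrogenase, fell by 0.82. Both subunits of the electron transfer flavoprotein, which takes electrons from the acyl-CoA dehydrogenases, were lower, with differences of -0.56 for Etfa and -0.72 for Etfb (adjusted p = 0.0042 and 0.00091), and were picked out after their values were seen. Among 3 ketone body genes, Oxct1 and Bdh1 rose by 0.43 and 0.71. Of 3 further peroxins, Pex26 fell by 0.65 and Pex11g rose by 0.64, the latter without passing under the mean of its probe sets (adjusted p = 0.34).

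PPAR partners included a large rise and PPAR targets went both ways. Of 20 partner genes 5 rose and 0 fell, so 25% were called, under the 33.2% of all genes. Of the 15 not called, 6 had positive and 9 negative differences. Rxra, the retinoid X receptor that pairs with PPARs, went from 7.91 ± 0.13 to 9.81 ± 0.03 (SD, n = 3), or 3.72-fold higher (adjusted p = 5.5e-05, limma), Lpin1 rose by 0.66, and Ppard, chosen after its value was seen, rose by 0.88. Of 23 targets 5 rose and 5 fell (43.5% called). Pdk4, the kinase that turns glucose carbon away from mitochondria, rose 18.7-fold, from 4.76 ± 0.28 to 8.99 ± 0.29 (adjusted p = 4.6e-05). Vnn1, a pantetheinase, rose at least 12.3-fold from under the ceiling (adjusted p = 0.00014). Lpl, which frees fatty acids from lipoproteins, fell 6.50-fold (adjusted p = 0.00014), and Plin2, a lipid droplet coat protein, fell by 0.81.

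**Figure D4:**
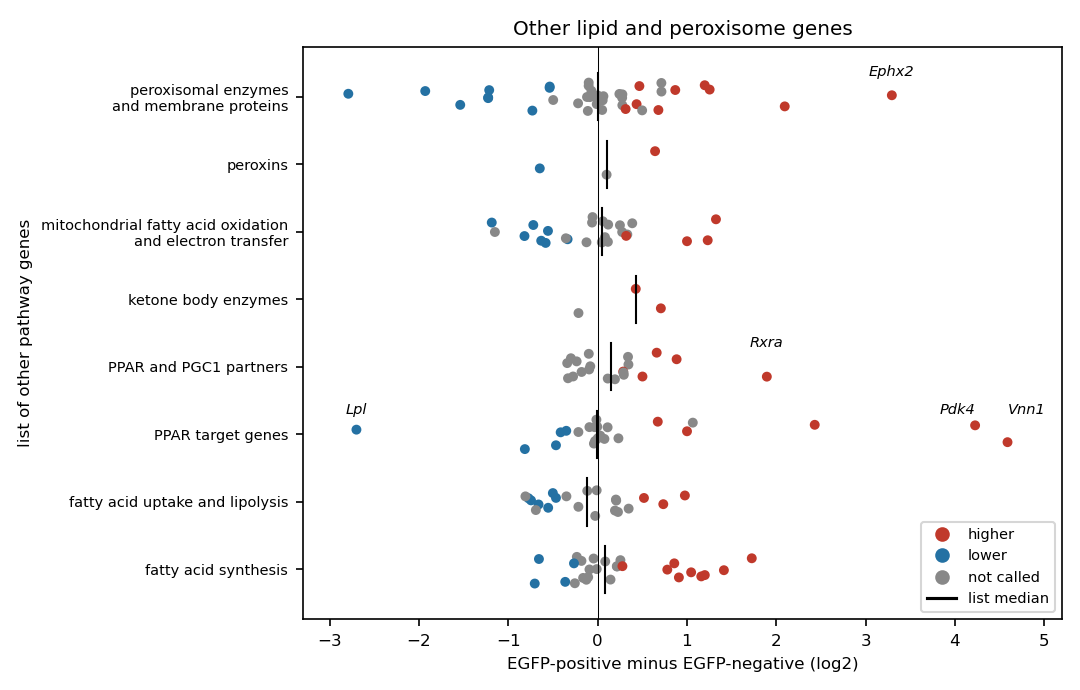
EGFP-positive minus EGFP-negative difference (log2) of genes in 8 further lists of lipid and peroxisome genes, 1 point per gene with vertical jitter, coloured by call, with the list median as a black bar. Medians lie between -0.12 and 0.43 while single genes reach 4.59 (Vnn1) and -2.79 (Far2, at the left of the peroxisomal enzymes).

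Fatty acid uptake and lipolysis genes were higher in 3 and lower in 6 of 21 (42.9% called, beside 33.2% of all genes). Slc27a1, a fatty acid transport protein, rose by 0.74 (adjusted p = 0.00077, limma) and Pnpla2, adipose triglyceride lipase, by 0.98 (adjusted p = 0.0019), while G0s2, an inhibitor of that lipase, fell by 0.75 (adjusted p = 0.0019). With the mean of its probe sets Pnpla2 did not pass (0.31, adjusted p = 0.083). Acsbg1 fell at least 1.42-fold, to under the ceiling. Of 27 synthesis genes 9 were higher and 4 lower (48.1% called). Acacb, the acetyl-CoA carboxylase whose malonyl-CoA restrains Cpt1, rose by 1.05 (adjusted p = 0.00041) and the acetate-activating Acss2 by 1.20 (adjusted p = 0.00050). Fasn, fatty acid synthase, fell by 0.66 and Tecr, of chain elongation, by 0.70.

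Markers of blood cell types moved with the groups as well. Of 10 neutrophil genes 10 were lower, of 8 mast cell and basophil genes 7, of 6 eosinophil genes 4, of 8 monocyte and macrophage genes 5 (with 2 higher), and of 7 lymphoid genes 3 (limma, adjusted over all genes). Of 8 erythroid genes 5 were higher and 1 lower, and of 6 megakaryocyte genes 4 were higher and 0 lower. Over all genes 33.2% were called, 16.0% higher and 17.2% lower. The share called was 42.9% in the lymphoid list and from 66.7% to 100% in the others named so far. In the hepatocyte list below it was 16.7%. The excess over all genes was not tested. The summed signal of the mast cell list on the log2 scale went from between 13.66 and 13.71 to between 11.64 and 11.77, that of the eosinophil list from between 10.65 and 10.83 to between 7.75 and 8.46, and that of the neutrophil list from between 15.78 and 15.87 to between 14.86 and 14.90. The erythroid sum rose from between 12.66 and 12.74 to between 13.18 and 13.27, the megakaryocyte sum from between 10.68 and 10.79 to between 11.85 and 12.01, the lymphoid sum went from between 10.13 and 10.28 to between 7.24 and 7.58, and the monocyte sum from between 12.34 and 12.38 to between 12.31 and 12.36. The part of these shifts in the fall of Acaa1b, Scp2, the Acsl genes or Pparg was not tested. Progenitor markers were present, since all 7 measured had both means above the ceiling, but they were not alike in the 2 groups. The 4 lower were Cd34 (-2.75), Kit (-0.98), Flt3 (-0.82) and Myb (-0.82). Spi1 was higher (0.51), and Ptprc and Lmo2 were not called. The progenitor sum went from between 13.70 and 13.76 to between 13.17 and 13.21. For cell types rich in this pathway, 3 of 4 adipocyte genes, including Adipoq, were under the ceiling in both groups, and none of the 4 was called. Of 6 hepatocyte genes, Alb, Apob and Cyp2e1 were under the ceiling in both groups, Ttr and Ahsg lay above it without a call, and Apoa1, the apolipoprotein of high-density lipoprotein, rose from 7.13 ± 0.30 to 8.62 ± 0.33 (SD, n = 3; difference 1.49, adjusted p = 0.0030). The summed hepatocyte signal went with it, from between 7.39 and 7.80 to between 8.47 and 9.04, and its part in the differences above was not tested.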

How the data were processed

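RNA from 6 sorted fractions was amplified from the 3' end, labelled with biotin and measured on 1 Affymetrix array each, per the labels' protocols. The authors deposited log2 values per probe set, made by RMA (background correction, quantile normalization, probe summary), per the submitters' processing notes; a version was not given in the sources used here. Quantile normalization hides changes in total RNA per cell.

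Of 45037 probe sets that are not controls, 34945 were annotated to 1 gene, 932 to several and 9160 to none in the table used. A limma 3.58.1 model (R 4.3.3; lmFit and eBayes, no covariate) was run on all 18192 genes, EGFP-positive minus EGFP-negative, two-sided, with Benjamini-Hochberg adjustment over all genes and a threshold of 0.05. No filter was applied. Where a dimmer group had arrays under 3.61, these were set to 3.61 and the fold is a lower bound; with both means under it no fold is given. The fit was run on simulated data with independent noise and known differences added. That checks the code and cannot show that the p-values hold for these arrays, which may be technical replicates. Arrays carry no read depth; their number, 3 per group, limits the precision. The genes, their roles and the other lists were chosen with earlier results of these data known. Values on every array are given for genes called with a difference of at least 1, for Cpt1a, Cpt2 and Ppargc1a and for the smallest p of each role; further such genes were chosen after their values were seen. From each other list up to 2 genes per direction with the smallest p are named. Of the 43 genes 36 had a RefSeq promoter window.

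Samples with the same replicate number did not deviate together (correlations of 0.01, -0.01 and 0.00 over genes), so numbers were not taken as pairs. Alternatives were the number as a block, arrays shifted to the same median, a further quantile normalization, only genes brighter than the median gene, eBayes with trend or robust options, array weights, other probe set choices, each array left out and, for the compartment medians, Eci2 moved or left out; leaving out Acaa1b was added after the data were seen.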

Additional observations from a re-analysis of the deposited data

How the results depend on the processing

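Of 13 called genes, 7 kept their call under all 15 alternatives (Acaa1b, Acadm, Acsl3, Acsl4, Cpt2, Pparg and Scp2), and none of the 13 changed sign. With the replicate number as a block the total was 10 of 41 genes called rather than 13, with 3 higher rather than 5, and Acadvl (adjusted p = 0.055), Cat (0.054) and Eci2 (0.096) were lost; 14 rather than 17 of their probe sets passed and 57 rather than 68 of the other pathway genes. With the most variable probe set per gene 3 were called higher, with Acadl (0.75), Acadvl (0.069) and Eci2 (0.096) lost, and Acadl also failed with the mean of its probe sets (0.23). Shifting arrays to the same median lost Eci2 (0.052). Leaving out 1 array at a time gave 9 to 12 calls, 4 to 5 of them higher and 5 to 7 lower, and 11 to 18 probe sets. The total rose to 15 with only the brighter genes (6 higher and 9 lower). It was also 15 with eBayes trend (7 higher and 8 lower), where Pex13 passed (adjusted p = 0.049). Of 28 uncalled genes, 7 passed under some alternative: Hadh with eBayes trend (adjusted p = 0.0019), Pex2 and Pex13 with only the brighter genes (0.014 and 0.035) and, without 1 array, Ehhadh, Acox3, Pex14 and Ppargc1a (the last 0.043, without EGFP-positive replicate 2). The mitochondrial median of 0.13 became 0.15 with arrays shifted to the same median, 0.10 with the mean of all probe sets, 0.16 with the most variable probe set and 0.071 with Eci2, and ran from 0.12 to 0.14 without 1 array; the peroxisomal median ran from -0.01 to 0.05. The causes were not tested.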
